A study of Homo sapiens with 18 samples.

Results

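Libraries labelled XG1, a human multiple myeloma cell line, were compared after 24 h with 100 nM of the compound YKL-5-124 or with its solvent DMSO. The comparison takes the 3 libraries of the 100 nM group and the 3 libraries of the DMSO group, 6 of the 18 libraries of the series, which were chosen by their labels alone. The other 12 libraries are 3 of XG1 at 1000 nM and 9 of a second myeloma line, AMO1, under 100 nM, 1000 nM and DMSO. All cells were grown in serum-containing RPMI medium in multi-well plates and the labels name no further agent or genetic change. Replicates carry numbers, but no label states whether they were separate cultures, so p-values measure only the spread between these libraries, which may be technical.

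YKL-5-124 is a covalent inhibitor of CDK7. With cyclin H and MAT1, CDK7 forms the kinase that activates the cell cycle kinases, and as a part of the general transcription factor TFIIH the same trio phosphorylates the tail of RNA polymerase II at promoters. Inhibition of CDK7 is known for its effect on the E2F programme and on entry into S phase, and for a feedback between transcription and the level of the polymerase itself.

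RNA was read from the 3′ ends of transcripts and deposited as FPKM, fragments scaled to transcript length and library size, on a scale that appears to have been set by spike-in RNA of the ERCC set. The 3 libraries at 100 nM held 10869 to 11800 genes of at least 1 FPKM, and the 3 with DMSO held 11094 to 11440. The read depth is unknown, so no counting interval is given. Rank correlations between libraries ran between 0.931 and 0.952 within the 100 nM group, between 0.965 and 0.969 within the DMSO group and between 0.900 and 0.945 across the groups. The 100 nM replicate 2 stood apart on the second principal component (loading 0.82, with 16.3% of the variance), where replicate 3 of the same group lay on the other side (loading −0.47). Values without replicate 2 are therefore given beside the counts of most gene lists.

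The marker genes went against the label. Of 10 plasma cell markers, 2 reached 5 FPKM in all 6 libraries, and the myeloma transcription factor IRF4 was under 1 FPKM in every one. Of 10 erythroid markers, 8 reached 5 FPKM in all 6 libraries, and their summed level was 2436 to 3144 FPKM at 100 nM and 3705 to 4093 FPKM with DMSO. The plasma cell markers summed to 67.7 to 126 FPKM at 100 nM and 91.6 to 145 FPKM with DMSO. Of 6 B cell markers and 5 megakaryocyte markers none reached 5 FPKM in all 6 libraries, all 5 stromal markers were under 1 FPKM throughout, and 1 of 6 myeloid and 1 of 6 T and NK cell markers reached 5 FPKM. "XG1" below therefore means the libraries that carry that label.

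Summed gene levels were lower at 100 nM in these libraries. The genes of the 3 libraries at 100 nM summed to 1146629, 1057060 and 994329 FPKM, against 1298798, 1221590 and 1425717 FPKM in the 3 DMSO libraries. The groups did not overlap, and the mean at 100 nM was 81.0% of the DMSO mean (exact permutation test, two-sided, p = 0.1, the smallest that 3 against 3 allows). The ERCC rows summed to 181919, 187657 and 184468 FPKM at 100 nM and 178689, 176955 and 176328 FPKM with DMSO. Their mean at 100 nM was 104% of the DMSO mean (exact permutation test, p = 0.1), so the spike-in level was not equal between the groups. In bulk RNA, fewer cells and less RNA per cell cannot be told apart. The median gene changed by −0.15 on the log2 scale as deposited, and by 0.01 after each library was divided by its median ratio to the others. Changes are given as deposited first, and on the second scale, called relative to the median gene, where the call differs.

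Of 11810 genes with at least 1 FPKM in at least 3 XG1 libraries, 293 rose (2.48%) and 1181 fell (10.0%) at 100 nM on the deposited scale (limma, Benjamini-Hochberg adjusted p under 0.05). On the relative scale the counts were 863 higher (7.31%) and 856 lower (7.25%). On both scales 292 rose (2.47%) and 834 fell (7.06%). The counts of gene lists below are to be read against these shares. The split between rises and falls thus depended on the scale: falls outnumbered rises as deposited and among genes called on both scales, while the counts were close on the relative scale. Without 100 nM replicate 2, 152 genes rose and 841 fell as deposited, and without DMSO replicate 3 the counts were 156 and 415. Of the other DMSO libraries, leaving out replicate 1 gave 151 and 567 and leaving out replicate 2 gave 135 and 760, and without 100 nM replicate 3 the counts were 403 and 749. Groups did not overlap in 289 of the 293 called rises and 1175 of the 1181 called falls, so a separation named below adds little to a call. Highly expressed genes fell more often. In the 1181 genes of the highest mean level over the 9 XG1 libraries, of 101 FPKM or more, 305 of 1181 genes fell with a median change of −0.27, while in the 1181 genes of the lowest level 14 rose and 14 fell with a median change of 0.03.

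**Figure D1:**
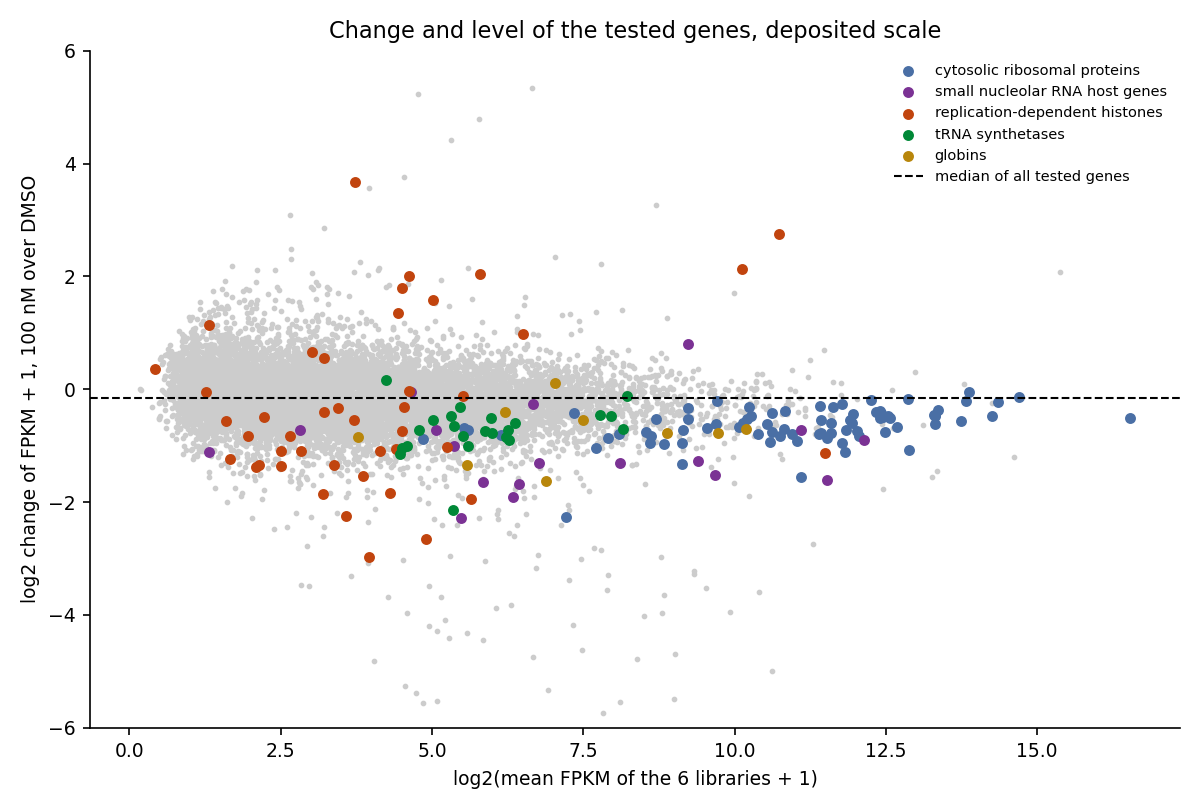
Log2 change of FPKM + 1 (y axis, 100 nM over DMSO, deposited scale) against the level of each tested gene (x axis, log2 of mean FPKM + 1 over the 6 libraries), with 5 gene lists in colour and 6 genes outside the y axis. Most ribosomal protein genes, at the right, and most small nucleolar RNA host genes lie below the dashed median of −0.15, while histone genes lie on both sides of it.

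Histone genes gave rises and falls of several fold. Clustered histone genes are copied in S phase into messages without a poly(A) tail; some members of the clusters can also be polyadenylated, in cells that leave the cycle or differentiate. Of 57 listed genes 43 were tested, 9 rose and 8 fell, with a negative log2 change in 30 and a median change of −0.57. On the relative scale 9 were called higher and 7 lower. Without 100 nM replicate 2 the counts were 7 and 7, and 5 fell without 100 nM replicate 3, without DMSO replicate 1 or without DMSO replicate 3. HIST1H2BK, an H2B gene, had 3089, 2887 and 2886 FPKM at 100 nM and 441, 422 and 454 FPKM with DMSO. The groups lay far apart, with a log2 change of 2.75 ± 0.12 (SE; limma adjusted p = 5.7e-07). HIST1H2BK overlaps HIST1H4I in the annotation, which had 2.62, 0.176 and 4.98 FPKM at 100 nM and 49.4, 17.9 and 12.2 FPKM with DMSO, so reads of this pair cannot be assigned with certainty. HIST1H4I was low in all 3 libraries at 100 nM, and its log2 change of −2.98 lay between −3.49 and −2.32 when single libraries were left out.

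The linker histone gene HIST1H1C had 2014, 1710 and 1728 FPKM at 100 nM and 410, 350 and 481 FPKM with DMSO (log2 change 2.14 ± 0.14, limma adjusted p = 1.56e-05). HIST2H2BE, an H2B gene of the chromosome 1 cluster, had 40.4, 48.2 and 26.7 FPKM at 100 nM and 9.66, 8.25 and 7.81 FPKM with DMSO (log2 change 2.01 ± 0.20). HIST1H2BG had 90.0, 86.2 and 85.4 FPKM at 100 nM and 26.5, 10.8 and 29.1 FPKM with DMSO (log2 change 2.04 ± 0.30). No library at 100 nM overlapped a DMSO library in any of these genes. HIST1H2BH, HIST1H2AM, HIST1H3D, HIST1H2BN and HIST1H2AE also rose, by 3.68, 1.79, 1.58, 1.36 and 0.98 on the log2 scale. HIST1H2BH had 12.6, 45.0 and 13.1 FPKM at 100 nM and low values of 2.14, 0.139 and 0.174 FPKM with DMSO, and HIST1H3D overlaps HIST1H2AD in the annotation. HIST1H2AE lost its call without 100 nM replicate 2 (limma adjusted p = 0.0586) or DMSO replicate 1 (0.0732), and HIST1H2BN without 100 nM replicate 2 (0.095), DMSO replicate 2 (0.0985) or DMSO replicate 3 (0.0957).

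In the other direction HIST1H4C, an H4 gene, had 2127, 1979 and 1396 FPKM at 100 nM and 3928, 3906 and 3990 FPKM with DMSO (log2 change −1.13 ± 0.18, limma adjusted p = 0.00416). HIST1H1D, another linker histone gene, had 6.52, 6.05 and 10.2 FPKM at 100 nM and 24.9, 24.5 and 40.1 FPKM with DMSO (log2 change −1.84 ± 0.31). Both separated the groups completely. HIST1H2AB fell by 1.1, and HIST1H2AH had a log2 change of −2.66, which lay between −3.34 and −2.19 as single libraries were left out. The 56 listed histone genes in the files summed to 7956, 7327 and 6543 FPKM at 100 nM and 5514, 5217 and 5739 FPKM with DMSO. Without HIST1H2BK and HIST1H1C, left out after their values were seen, the other 54 summed to 2854, 2730 and 1930 FPKM at 100 nM and 4663, 4445 and 4804 FPKM with DMSO. The whole sum was thus higher in all 3 libraries at 100 nM and the sum without this pair lower in all 3. Histone copies are near-identical and reads between them are uncertain.

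**Figure D2:**
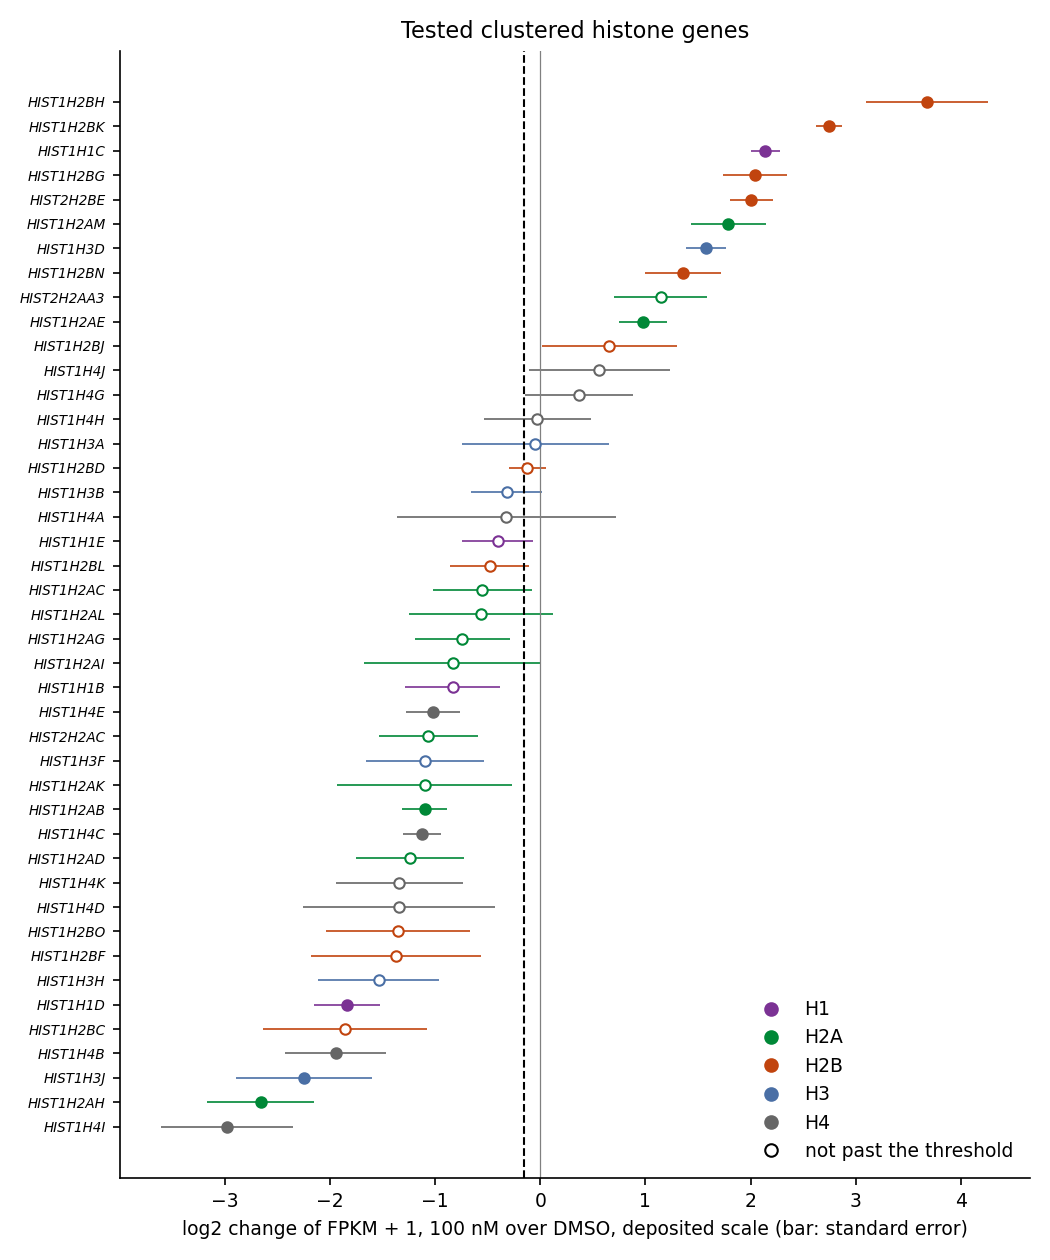
Log2 change of FPKM + 1 (x axis, 100 nM over DMSO, deposited scale, bars are standard errors) of the 43 tested clustered histone genes, coloured by histone class, filled where the adjusted p is under 0.05. HIST1H2BH, HIST1H2BK and HIST1H1C lie at 3.68, 2.75 and 2.14 on the right, and HIST1H4I at −2.98 on the left.

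Promoters of H2B and H2A genes are known for an octamer, ATTTGCAT, bound by the factor OCT1. The octamer stood on either strand, from 250 bases before to 50 bases after the annotated start, in 14 of 36 tested histone genes that had a RefSeq promoter, in 1.32% of all tested genes that had one and in 1.80% of all RefSeq promoters. Of these 14 histone genes 6 rose and 1 fell. Of all 124 tested genes with the octamer, these included, 11 rose and 12 fell, with a median of −0.18. Stretches of 70 bases from RefSeq (GRCh38.p14) are shown for 4 that rose, with the octamer in capitals.
HIST1H2BK (chr6:27146859-27146928, minus strand): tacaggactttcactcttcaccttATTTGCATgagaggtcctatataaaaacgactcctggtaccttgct
HIST2H2BE (chr1:149886683-149886752, minus strand): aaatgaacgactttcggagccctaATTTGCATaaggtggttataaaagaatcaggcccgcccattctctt
HIST1H2BH (chr6:26251544-26251613, plus strand): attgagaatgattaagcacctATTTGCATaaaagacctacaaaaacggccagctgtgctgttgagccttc
HIST1H2AM (chr6:27893226-27893295, minus strand): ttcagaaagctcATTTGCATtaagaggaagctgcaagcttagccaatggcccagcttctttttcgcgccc
The first 3 stretches end at the base before the annotated start and the fourth ends 40 bases further up. The octamer began 46 bases before the start in HIST1H2BK and in HIST2H2BE, 49 bases in HIST1H2BH and 98 bases in HIST1H2AM. A match describes the letters and no binding was measured.

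The gene of the largest polymerase II subunit rose, while those of the targeted kinase trio had negative changes that did not pass the threshold. The trio passed in some alternatives, given below. POLR2A, which encodes the catalytic subunit of RNA polymerase II, had 132, 144 and 126 FPKM at 100 nM and 52.2, 39.96 and 49.3 FPKM with DMSO. The log2 change was 1.495 ± 0.14 (limma adjusted p = 0.00022), and the call held in all 16 alternatives. POLR2L, a small subunit shared by the 3 nuclear polymerases, had 375, 345 and 395 FPKM at 100 nM and 225, 212 and 248 FPKM with DMSO (log2 change 0.70 ± 0.12). Of the 12 subunit genes 2 rose and 2 fell. POLR2H, another shared subunit, fell by 0.67 on the log2 scale and lost its call without DMSO replicate 1 (limma adjusted p = 0.0532). POLR2K fell by 0.84 and lost its call relative to the median gene (limma adjusted p = 0.0742) and without any library but 100 nM replicate 1 (limma adjusted p of 0.0668 to 0.115). Both rises were called whichever library was left out, while the falls were 0 without DMSO replicate 1, 3 without 100 nM replicate 1 and 1 without any other library.

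CDK7 had 22.8, 10.1 and 10.7 FPKM at 100 nM and 19.1, 25.5 and 39.3 FPKM with DMSO, so that the groups overlapped. Its log2 change of −0.93 ± 0.31 did not pass the threshold (limma adjusted p = 0.0681). MNAT1, which encodes MAT1, had 18.1, 7.19 and 8.30 FPKM at 100 nM and 16.3, 20.4 and 32.2 FPKM with DMSO (log2 change −1.02 ± 0.33, limma adjusted p = 0.0631). CCNH, which encodes cyclin H, had 39.0, 18.3 and 39.2 FPKM at 100 nM and 54.8, 53.1 and 52.1 FPKM with DMSO (log2 change −0.79 ± 0.26, limma adjusted p = 0.067). Without 100 nM replicate 1 all 3 passed, with log2 changes of −1.28 in CDK7, −1.40 in MNAT1 and −0.96 in CCNH (limma adjusted p = 0.00901, 0.00877 and 0.0382). CDK7 and MNAT1 also passed with all 18 libraries in the fit, and MNAT1 with a filter of 5 FPKM. Of the 9 tested genes of CDK7 and TFIIH none rose and 2 fell. The TFIIH core subunit gene GTF2H3 had 12.4, 10.1 and 11.5 FPKM at 100 nM and 27.6, 24.1 and 34.6 FPKM with DMSO (log2 change −1.26 ± 0.19, limma adjusted p = 0.00292). The groups did not overlap. GTF2H5 fell by 0.76, and lost its call without any library but 100 nM replicate 1 (limma adjusted p of 0.0551 to 0.115). The count of falls in this list was 5 without 100 nM replicate 1 and 1 without any other library. Of 30 tested pausing and elongation factors none rose and 2 fell, with 4 falls without 100 nM replicate 1, 2 without 100 nM replicate 2, 1 without 100 nM replicate 3 and none without any of the DMSO libraries. On the relative scale 2 were called lower and 1 higher, and among all tested genes 10.0% fell as deposited.

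**Figure D3:**
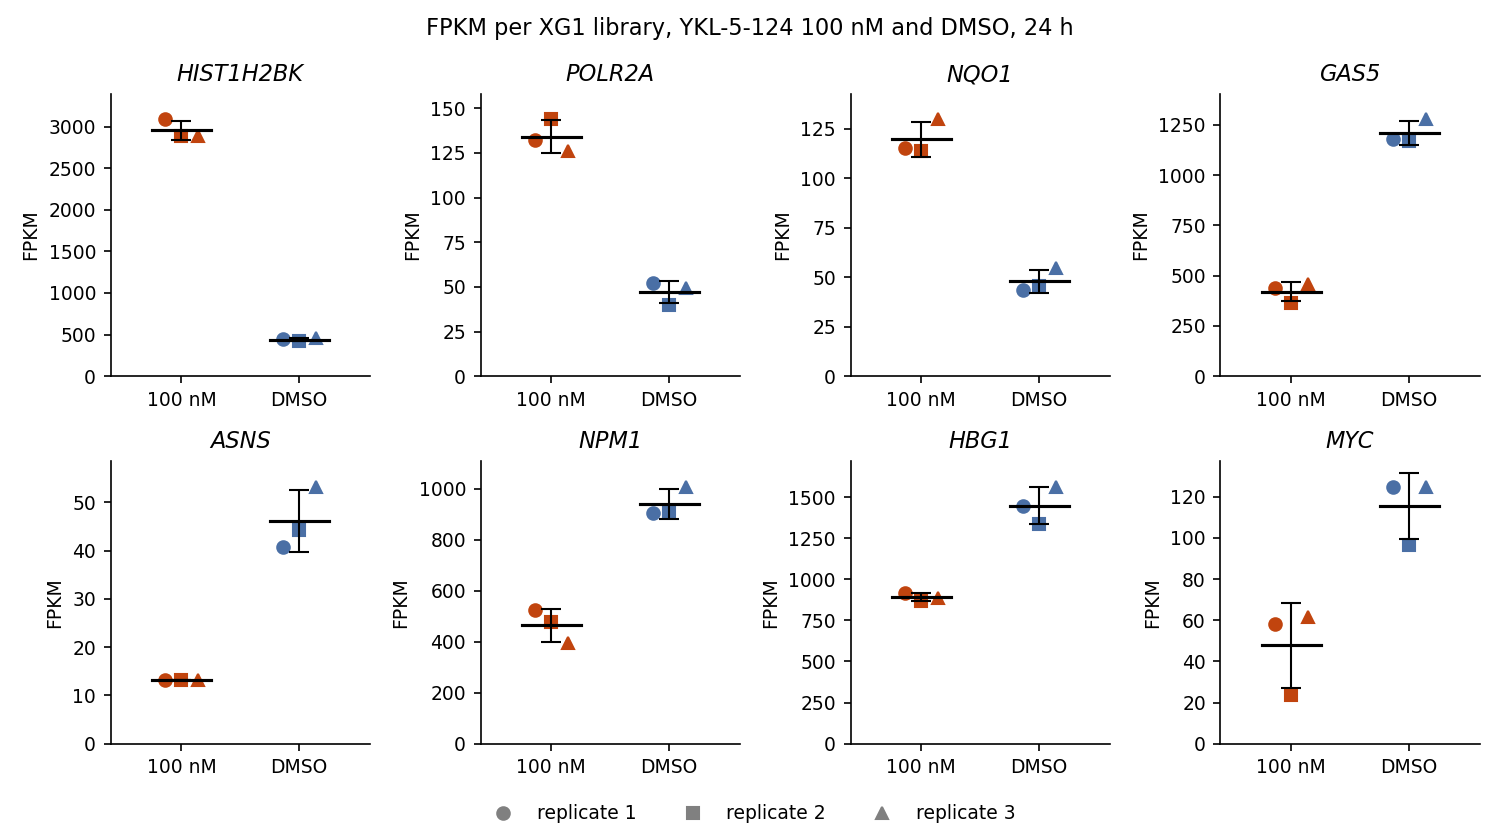
FPKM (y axis, from 0) in each XG1 library at 100 nM (left, red) and with DMSO (right, blue) for 8 genes, with the mean and SD of 3 libraries as lines and the replicates as symbols. The 100 nM libraries lie above the DMSO libraries in HIST1H2BK, POLR2A and NQO1 and below them in GAS5, ASNS, NPM1, HBG1 and MYC.

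Small nucleolar RNA host genes fell together. These genes are spliced into mostly noncoding transcripts whose introns carry small nucleolar RNAs, the guides of ribosomal RNA modification. Of 18 tested, 13 fell and 1 rose, with a median change of −1.19 as deposited and −1.05 relative to the median gene, and the counts were the same on both scales. Their summed level was 9758, 8430 and 7128 FPKM at 100 nM and 16316, 16219 and 17943 FPKM with DMSO. The groups were far apart. Without 100 nM replicate 2, 12 fell, and leaving out any 1 library left between 10 and 14.

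GAS5, a host of many box C/D guides, had 438, 366 and 456 FPKM at 100 nM and 1181, 1167 and 1278 FPKM with DMSO (log2 change −1.53 ± 0.12, limma adjusted p = 7.18e-05). SNHG12 had 18.4, 13.0 and 11.3 FPKM at 100 nM and 59.4, 68.4 and 90.2 FPKM with DMSO (log2 change −2.28 ± 0.22). SNHG8 had 1708, 1667 and 1094 FPKM at 100 nM and 4463, 4469 and 4368 FPKM with DMSO (log2 change −1.60 ± 0.17). In all 3 genes the lowest DMSO library lay well above the highest library at 100 nM. SNHG3, SNHG16, SNHG7, SNHG1, ZFAS1 and SNHG5 fell by 1.91, 1.64, 1.30, 1.30, 1.26 and 0.89 on the log2 scale, and each kept its call in all 16 alternatives. SNHG9, the exception, had 711, 846 and 728 FPKM at 100 nM and 373, 393 and 555 FPKM with DMSO (log2 change 0.81 ± 0.18). It lost its call without DMSO replicate 1 (limma adjusted p = 0.0632) or DMSO replicate 2 (0.0519). Protein-coding hosts fell as well: TAF1D, a subunit of the RNA polymerase I factor SL1, had 59.0, 30.9 and 34.6 FPKM at 100 nM and 128, 119 and 144 FPKM with DMSO. RABGGTB, a subunit of the Rab prenylating enzyme that hosts guides of its own, had 7.03, 2.90 and 2.68 FPKM at 100 nM and 30.8, 34.4 and 53.8 FPKM with DMSO (log2 change −3.02 ± 0.37). Host genes overlap their small RNAs, so reads between them are uncertain. No source used here states whether counting used the strand.

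Most cytosolic ribosomal protein genes fell, and part of the mitochondrial ones. All 79 cytosolic ribosomal protein genes had a negative log2 change, of which 56 fell and none rose, with a median of −0.61. At an unadjusted limma p under 0.05, 0 of these genes were higher, and the same count of 0 held for the nucleolar, transfer RNA synthetase, DNA replication, globin and erythroid factor lists given further on. Relative to the median gene 41 fell with a median of −0.42. The 1181 genes of the highest level had a median of −0.27. Without 100 nM replicate 2 the falls were 47, and without DMSO replicate 3 they were 32. RPS15A had 2435, 2213 and 2283 FPKM at 100 nM and 4726, 4905 and 5334 FPKM with DMSO (log2 change −1.11 ± 0.13, limma adjusted p = 0.000993). RPL24 had 1625, 1264 and 1477 FPKM at 100 nM and 2614, 2628 and 2922 FPKM with DMSO (log2 change −0.91 ± 0.12). Neither gene had overlapping groups, and ribosomal protein genes have many processed copies elsewhere in the genome that can share reads. Of 76 mitochondrial ribosomal protein genes 24 fell and none rose (20 without 100 nM replicate 2, 10 without DMSO replicate 3 and 17 relative to the median gene), among them MRPL48 with 33.9, 44.3 and 34.7 FPKM at 100 nM and 98.4, 94.2 and 113 FPKM with DMSO.

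Ribosomal protein and many host gene transcripts are known to begin with a terminal oligopyrimidine (TOP) motif, a C followed by a run of C and T, which couples their translation to growth signalling. A C at the annotated start with at least 4 pyrimidines after it stood in 43 of 64 ribosomal protein promoters, in 5 of 15 host gene promoters, in 5.6% of the promoters of tested genes and in 4.04% of all RefSeq promoters. Of the 526 tested genes with such a start 130 fell and 4 rose, with a median of −0.28. Among all tested genes 10.0% fell and 2.48% rose. Of the 526 genes 43 are the ribosomal protein genes above, of which 28 fell. The 30 bases from 10 before to 19 after the first transcribed base are shown for 6 genes that have this start and fell (RefSeq, GRCh38.p14). The first 5 transcribed bases are in capitals.
SNHG12 (chr1:28581854-28581883, minus strand): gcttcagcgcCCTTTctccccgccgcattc
ZFAS1 (chr20:49278632-49278661, plus strand): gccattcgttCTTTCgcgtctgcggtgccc
SNHG5 (chr6:85678714-85678743, minus strand): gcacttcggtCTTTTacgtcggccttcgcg
TAF1D (chr11:93741476-93741505, minus strand): aatagccaacCCTTTtcttccgcacggttg
RPL24 (chr3:101686699-101686728, minus strand): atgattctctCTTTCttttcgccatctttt
NPM1 (chr5:171387839-171387868, plus strand): agcctgcgtcCTTTCcctggtgtgattccg
All 6 begin with C and run on in T and C, which follows from how they were chosen. With the start in 5 of 15 host gene promoters, it was not shared by the host genes as a list. The start was read from 1 RefSeq promoter per gene, and no start site was measured in these cells.

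MYC and nucleolar genes of ribosome assembly fell in part. Of 59 tested genes 24 fell and none rose, with a median of −0.58, and 21 fell relative to the median gene. The falls were 23 without 100 nM replicate 2, 15 without DMSO replicate 1 and 14 without DMSO replicate 3. The transcription factor gene MYC had 58.0, 23.7 and 61.5 FPKM at 100 nM and 125, 96.8 and 125 FPKM with DMSO (log2 change −1.36 ± 0.32, limma adjusted p = 0.0196). The groups did not overlap, but the call was lost relative to the median gene (limma adjusted p = 0.0588), without DMSO replicate 1 (0.0634) and without DMSO replicate 3 (0.0742). NPM1, a nucleolar chaperone of ribosome assembly, had 524, 476 and 395 FPKM at 100 nM and 905, 908 and 1008 FPKM with DMSO (log2 change −1.02 ± 0.13, limma adjusted p = 0.00117). NCL, LYAR, DKC1 and DDX18, which act in the nucleolus on ribosomal RNA, fell by 0.88, 1.15, 0.83 and 1.09 on the log2 scale, each in all 16 alternatives.

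**Figure D4:**
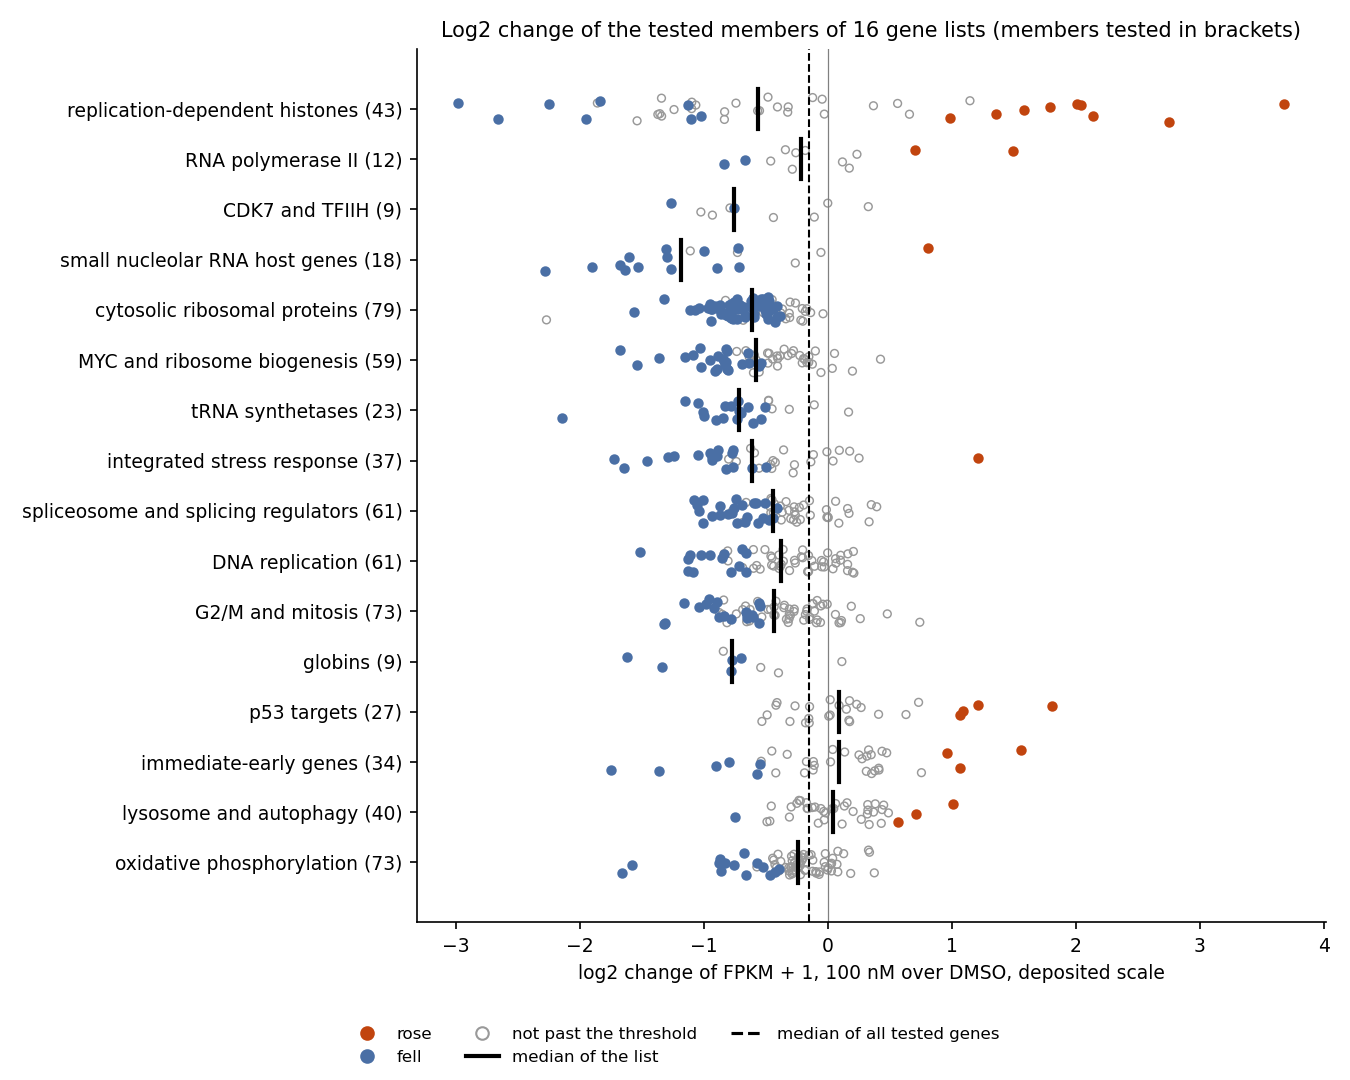
Log2 change of FPKM + 1 (x axis, 100 nM over DMSO, deposited scale) of each tested member of 16 gene lists (rows, number tested in brackets), with rises in red, falls in blue and open circles for genes that did not pass the threshold. The list medians, black bars, lie at −1.19 for small nucleolar RNA host genes and −0.61 for cytosolic ribosomal proteins, against −0.15 for all tested genes, the dashed line.

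Genes of amino acid supply fell in part. The integrated stress response acts through ATF4, which switches on enzymes that make and import amino acids and that charge transfer RNAs. Of 37 tested genes 17 fell and 1 rose, with a median of −0.61, and 15 fell relative to the median gene. The falls were 14 without 100 nM replicate 2 and 11 without DMSO replicate 1 or DMSO replicate 3. ATF4 had 89.4, 105 and 62.4 FPKM at 100 nM and 184, 160 and 179 FPKM with DMSO (log2 change −1.05 ± 0.17, limma adjusted p = 0.00416). ASNS, asparagine synthetase, had 13.2, 13.2 and 13.1 FPKM at 100 nM and 40.7, 44.3 and 53.2 FPKM with DMSO (log2 change −1.72 ± 0.17, limma adjusted p = 0.000221). PSAT1, of serine synthesis, had 64.8, 57.8 and 53.2 FPKM at 100 nM and 136, 133 and 149 FPKM with DMSO (log2 change −1.24 ± 0.13). All 3 genes separated the groups in every library. PHGDH, the first enzyme of serine synthesis, PYCR1, of proline synthesis, and INHBE, an activin subunit, fell by 0.93, 0.82 and 1.46. CHAC1, which breaks down glutathione, fell by 1.29 and lost its call without DMSO replicate 3 (limma adjusted p = 0.0574). The rise was GDF15, a secreted stress factor that p53 also induces, with 272, 247 and 201 FPKM at 100 nM and 100, 87.5 and 122 FPKM with DMSO (log2 change 1.21 ± 0.15).

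Of 23 cytosolic transfer RNA synthetase genes and their scaffold partners 17 fell and none rose, with a median of −0.72, and 14 fell relative to the median gene. The falls were 15 without 100 nM replicate 2, 8 without DMSO replicate 1 and 7 without DMSO replicate 3. WARS, the tryptophan enzyme, had 58.5, 51.0 and 50.02 FPKM at 100 nM and 97.3, 95.3 and 107 FPKM with DMSO (log2 change −0.90 ± 0.13, limma adjusted p = 0.0027). LARS, NARS and the scaffold gene AIMP1 fell by 1.0, 0.85 and 1.15. In each the groups did not overlap. The letters TTGCATCA, a form of the element that ATF4 binds with its C/EBP partners, stood on either strand in the promoters of 6 of the 16 tested synthetase genes that had one, in 2 of 30 stress response genes, in 0.479% of the tested genes and in 0.923% of all RefSeq promoters. Of those 6 synthetase genes 5 fell, beside 17 of 23 in the whole list, and TARS was not called (limma adjusted p = 0.0561). Of all 45 tested genes with these letters, the synthetase genes included, 19 fell and 1 rose, with a median of −0.54. The shares over all tested genes were 10.0% and 2.48%. Stretches of 60 or 50 bases are shown for 4 genes that have the element and fell (RefSeq, GRCh38.p14), where HERPUD1 is a gene of the endoplasmic reticulum stress response.
CHAC1 (chr15:40953246-40953305, plus strand): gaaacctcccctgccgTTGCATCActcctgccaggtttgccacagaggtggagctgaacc
HERPUD1 (chr16:56931947-56932006, plus strand): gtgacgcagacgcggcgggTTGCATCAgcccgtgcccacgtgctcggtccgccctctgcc
AARS (chr16:70289652-70289711, minus strand): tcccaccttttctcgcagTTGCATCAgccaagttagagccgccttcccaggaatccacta
IARS (chr9:92293688-92293737, minus strand): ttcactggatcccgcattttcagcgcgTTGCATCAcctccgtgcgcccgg
The element began 209, 176, 187 and 13 bases before the start in CHAC1, HERPUD1, AARS and IARS. HERPUD1 had 12.0, 7.78 and 13.98 FPKM at 100 nM and 26.6, 20.5 and 25.4 FPKM with DMSO (log2 change −1.07 ± 0.22). AARS had 46.2, 50.2 and 41.2 FPKM at 100 nM and 86.4, 74.7 and 77.4 FPKM with DMSO (log2 change −0.78 ± 0.14). Both genes were lower in every library at 100 nM. IARS had 23.1, 12.8 and 10.3 FPKM at 100 nM and 30.2, 24.1 and 37.8 FPKM with DMSO (log2 change −1.01 ± 0.27), and lost its call without 100 nM replicate 2 (limma adjusted p = 0.0837), 100 nM replicate 3 (0.0988), DMSO replicate 1 (0.0868) or DMSO replicate 3 (0.135).

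Cell cycle genes fell in part. Of 61 DNA replication genes 14 fell and none rose (1 rose without 100 nM replicate 3), with a median of −0.38, and 11 fell relative to the median gene. The falls were 7 without 100 nM replicate 2, 8 without 100 nM replicate 3, and 6, 9 and 5 without DMSO replicates 1, 2 and 3. PCNA, the sliding clamp of the replication fork, had 118, 78.3 and 119 FPKM at 100 nM and 247, 190 and 249 FPKM with DMSO (log2 change −1.13 ± 0.17, limma adjusted p = 0.0031). MCM6, of the replicative helicase, had 16.2, 14.9 and 17.3 FPKM at 100 nM and 36.1, 28.5 and 36.9 FPKM with DMSO (log2 change −1.02 ± 0.16). The groups did not overlap in either. DUT and UNG, which keep uracil out of DNA, fell by 1.08 and 0.95. Of 73 genes of G2 and mitosis 19 fell and none rose, with a median of −0.43, and relative to the median gene 14 fell and 2 rose. As deposited, 1 rose without 100 nM replicate 1 or 100 nM replicate 3. The falls were 13 without 100 nM replicate 2, 12 without 100 nM replicate 3, 7 without DMSO replicate 1 and 5 without DMSO replicate 3. AURKB, the kinase of the chromosomal passenger complex, had 230, 237 and 206 FPKM at 100 nM and 339, 331 and 401 FPKM with DMSO (log2 change −0.66 ± 0.13, limma adjusted p = 0.00889). SMC4, a condensin subunit, MAD2L1, of the spindle checkpoint, and the tubulin gene TUBB fell by 0.98, 1.04 and 0.78. Their groups did not overlap.

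Among E2F, RB and G1 genes 1 of 26 rose and 1 fell, and the fall was not called without 100 nM replicate 3 or any of the DMSO libraries. The rises were 2 without 100 nM replicate 1, and 0 without 100 nM replicate 2, DMSO replicate 1 or DMSO replicate 2. On the relative scale 3 were called higher and 1 lower. CCND3, cyclin D3, had 183, 200 and 163 FPKM at 100 nM and 121, 115 and 137 FPKM with DMSO (log2 change 0.54 ± 0.13, limma adjusted p = 0.0194), and lost its call without 100 nM replicate 2 (0.0598), DMSO replicate 1 (0.0751) or DMSO replicate 2 (0.0674). E2F1 had 7.55, 7.80 and 6.31 FPKM at 100 nM and 10.9, 9.99 and 12.7 FPKM with DMSO, and its log2 change of −0.57 ± 0.20 did not pass (limma adjusted p = 0.0922). The groups did not overlap in either gene. CCND1 was under 1.1 FPKM and ABCB1, a drug efflux pump, under 1 FPKM in all 6 libraries, and neither was tested. Of 37 genes of homologous recombination and the checkpoints 5 fell and none rose (4 without 100 nM replicate 2, and 2, 3 and 1 without DMSO replicates 1, 2 and 3), and on the relative scale 5 were called lower and 1 higher. The share of all tested genes that fell as deposited was 10.0%. NBN, of the complex that senses DNA breaks, had 10.1, 7.03 and 5.16 FPKM at 100 nM and 16.8, 21.9 and 21.7 FPKM with DMSO (log2 change −1.36 ± 0.24, limma adjusted p = 0.00583).

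Of 27 tested p53 targets 4 rose and none fell (4 were lower at an unadjusted limma p under 0.05), with a median of 0.09 (3 rose without 100 nM replicate 2, and 3 fell without 100 nM replicate 1). TP53I3, a quinone reductase, had 12.2, 15.96 and 6.35 FPKM at 100 nM and 4.04, 2.49 and 1.18 FPKM with DMSO (log2 change 1.81 ± 0.34, limma adjusted p = 0.00781). BTG2, which slows proliferation, had 23.8, 21.4 and 21.6 FPKM at 100 nM and 9.96, 8.70 and 12.0 FPKM with DMSO (log2 change 1.06 ± 0.16). Both separated the groups. CDKN1A, which encodes the cell cycle inhibitor p21, had 2.81, 5.38 and 6.18 FPKM at 100 nM and 3.47, 1.51 and 2.40 FPKM with DMSO, which overlapped (limma adjusted p = 0.143). Of 18 BCL2 family genes none passed the threshold in limma on the deposited scale (at an unadjusted p under 0.05, 1 was higher and 6 were lower), 2 rose relative to the median gene, and 3 fell without 100 nM replicate 1, against 0 without any other library. MCL1, a survival gene with a short-lived transcript, had 182, 141 and 155 FPKM at 100 nM and 159, 155 and 150 FPKM with DMSO (log2 change 0.04 ± 0.14, limma adjusted p = 0.878).

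Quickly induced genes went both ways. Of 34 immediate-early genes 3 rose and 6 fell, while on the relative scale 10 were higher and 2 lower, so the balance of this list turned with the scale. As deposited 5 rose without 100 nM replicate 3. The falls were 3 without 100 nM replicate 2, 100 nM replicate 3 or DMSO replicate 2, and 1 without DMSO replicate 1 or 3. JUNB, an AP-1 subunit, had 70.4, 62.8 and 73.0 FPKM at 100 nM and 35.6, 36.0 and 32.8 FPKM with DMSO (log2 change 0.96 ± 0.13, limma adjusted p = 0.00174). CYR61, a matrix protein of the CCN family, rose by 1.55. EGR1, an early growth response factor, had 59.7, 56.8 and 37.3 FPKM at 100 nM and 97.1, 111 and 78.7 FPKM with DMSO (log2 change −0.90 ± 0.19, limma adjusted p = 0.0114). Of 26 NF-kB targets 4 fell and none rose (2 without 100 nM replicate 2, and 1 without 100 nM replicate 3, DMSO replicate 1 or DMSO replicate 3), and on the relative scale 3 were called lower and 1 higher. As deposited, 10.0% of all tested genes fell. CXCL8, the neutrophil chemokine interleukin-8, had 14.5, 4.34 and 7.50 FPKM at 100 nM and 62.4, 60.4 and 82.2 FPKM with DMSO (log2 change −2.95 ± 0.37, limma adjusted p = 0.00119). No library at 100 nM came near the DMSO range.

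Globin genes of the red cell lineage, whose markers these libraries hold, fell in part, while other red cell lists went both ways. Of 9 tested globin genes 5 fell and none rose, on both scales, and 5 fell without 100 nM replicate 2. The globin list summed to 2416, 2380 and 2110 FPKM at 100 nM and 3844, 3572 and 3948 FPKM with DMSO. HBG1, a fetal gamma globin gene, had 916, 867 and 889 FPKM at 100 nM and 1444, 1337 and 1563 FPKM with DMSO (log2 change −0.70 ± 0.11, limma adjusted p = 0.00366). HBG2, its near-identical neighbour, and HBA2, an alpha globin gene with a near-identical copy, fell by 0.78 and 0.77, with reads between copies uncertain. HBD, the delta globin gene, had 52.9, 75.3 and 44.9 FPKM at 100 nM and 173, 161 and 194 FPKM with DMSO (log2 change −1.62 ± 0.18). HBE1, the embryonic epsilon globin gene, had 21.1, 31.6 and 26.1 FPKM at 100 nM and 59.3, 68.1 and 74.2 FPKM with DMSO (log2 change −1.34 ± 0.18). The groups were separate in all 5 genes.

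Of 20 erythroid transcription factor genes 3 fell and none rose as deposited (2 fell without 100 nM replicate 2), while relative to the median gene 3 fell and 2 rose. For comparison, 10.0% of all tested genes fell as deposited. KLF1, the activator of globin genes, had 52.9, 50.2 and 44.0 FPKM at 100 nM and 94.5, 91.6 and 113 FPKM with DMSO (log2 change −1.01 ± 0.14, limma adjusted p = 0.00194). LMO2, a bridging subunit of the erythroid complex, fell by 1.04. Of 21 tested red cell membrane and blood group genes 4 fell and 1 rose. Of 30 tested genes of heme synthesis and iron 3 fell and 3 rose. The heme and iron list summed to 6803, 6457 and 5459 FPKM at 100 nM and 5118, 4908 and 5203 FPKM with DMSO, so its sum was higher at 100 nM. TFRC, the transferrin receptor that brings in iron, had 80.7, 67.1 and 48.1 FPKM at 100 nM and 133, 131 and 122 FPKM with DMSO (log2 change −1.0 ± 0.18). FTL, which stores iron as ferritin light chain, went the other way, with 3733, 3718 and 3192 FPKM at 100 nM and 2189, 2145 and 2218 FPKM with DMSO (log2 change 0.70 ± 0.11, limma adjusted p = 0.00362). These libraries separated the groups in each gene. The erythroid markers as a group were lower at 100 nM in sum, as given above, and the myeloid marker ITGAM fell by 0.85; their part in the changes of other genes was not tested.

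Single genes of redox defence and the lysosome gave some of the other rises. NQO1, a quinone reductase and NRF2 target, had 115, 113 and 130 FPKM at 100 nM and 43.7, 45.8 and 54.5 FPKM with DMSO (log2 change 1.30 ± 0.13, limma adjusted p = 0.000297). The NRF2 list had a median of −0.41, against −0.15 for all tested genes, with a negative log2 change in 15 of 21 targets. At an unadjusted limma p under 0.05, 3 were higher and 9 lower. After adjustment 2 rose and 2 fell, and relative to the median gene 3 were higher and none lower. The falls were 4 without 100 nM replicate 1, 1 without 100 nM replicate 3 or DMSO replicate 2, and 0 without any other library. NEU1, the lysosomal sialidase, had 97.8, 89.0 and 72.1 FPKM at 100 nM and 43.0, 38.7 and 44.5 FPKM with DMSO (log2 change 1.01 ± 0.14). Both genes rose in every alternative. Of 40 genes of the lysosome and autophagy 3 rose and 1 fell, and on the relative scale 12 were higher and 1 lower. Over all tested genes 2.48% rose as deposited and 7.31% were higher on the relative scale. As deposited, 5 rose without 100 nM replicate 3, 1 without DMSO replicate 1 or 2, and 2 without any other library. The fall was called without 100 nM replicate 1 or DMSO replicate 2 and not when any other library was left out. ISG15, a ubiquitin-like protein induced by interferon, rose by 1.19, and 1 of 23 interferon-stimulated genes rose and 1 fell (0 without DMSO replicate 1 and 2 without 100 nM replicate 2), with 2 higher and 1 lower on the relative scale.

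Splicing, folding and sterol genes fell in part. Of 61 genes of the spliceosome and its regulators 24 fell and none rose (3 were higher at an unadjusted limma p under 0.05; the falls were 18 without 100 nM replicate 2, 12 without DMSO replicate 1 or DMSO replicate 3), and 17 fell and 3 rose relative to the median gene. HNRNPA1, a splicing repressor with many processed copies, had 262, 208 and 250 FPKM at 100 nM and 530, 447 and 547 FPKM with DMSO (log2 change −1.08 ± 0.14, limma adjusted p = 0.00118). Of 27 chaperones 12 fell and 1 rose (10 fell without 100 nM replicate 2 and 6 without DMSO replicate 3, and the rise was called without 100 nM replicate 3 and not when any other library was left out), among them HSPD1, the mitochondrial chaperonin, which fell by 0.91. Relative to the median gene 8 chaperones fell and 2 rose. Of 31 genes of cholesterol synthesis 8 fell and 1 rose (6 fell without 100 nM replicate 2, 5 without DMSO replicate 2, and 3 without 100 nM replicate 3, DMSO replicate 1 or DMSO replicate 3), and on the relative scale 6 were called lower and 2 higher. TM7SF2, a sterol reductase, rose by 0.98. Of 73 respiratory chain genes 14 fell as deposited, while 3 fell and 4 rose relative to the median gene. The falls were 5 without 100 nM replicate 2 or DMSO replicate 1, 6 without 100 nM replicate 3 or DMSO replicate 2, and 3 without DMSO replicate 3.

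Single genes outside the lists changed as much. MRLN, a micropeptide that restrains the SERCA calcium pump in muscle, had 27.1, 11.6 and 25.2 FPKM at 100 nM and 189, 179 and 197 FPKM with DMSO (log2 change −3.17 ± 0.29, limma adjusted p = 0.000185). CCDC92, a coiled-coil protein, had 21.1, 24.9 and 14.8 FPKM at 100 nM and 4.42, 3.56 and 3.90 FPKM with DMSO (log2 change 2.07 ± 0.21). TUBB3, the neuronal beta tubulin, had 25.8, 23.4 and 21.7 FPKM at 100 nM and 4.08, 5.45 and 5.65 FPKM with DMSO (log2 change 2.03 ± 0.18). No library of one group reached the range of the other in any of the 3. STYXL1, a pseudophosphatase, and FIBCD1, a chitin receptor, rose by 1.81 and 2.05. HNRNPH2 rose by 5.24 while the read-through RPL36A-HNRNPH2 that overlaps it fell by 4.45, so the split of reads between this pair is uncertain. The fall was still called without 100 nM replicate 1, but not when any other library was left out (limma adjusted p of 0.052 to 0.0862). The metallothionein gene MT2A, named after its values were seen, had 535, 450 and 478 FPKM at 100 nM and 1525, 1477 and 1633 FPKM with DMSO (log2 change −1.66 ± 0.13, limma adjusted p = 5.03e-05).

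The response of XG1 was set against that of AMO1 at the same dose and time, 3 libraries against 3, each with its own DMSO. Over 12792 genes the difference between the responses (XG1 minus AMO1, limma interaction over 18 libraries) was positive past the threshold in 687 (5.37%) and negative in 110 (0.860%). Relative to the median gene the counts were 760 (5.94%) and 468 (3.66%). Leaving out 1 library gave 368 (without AMO1 DMSO replicate 2) to 1041 (without XG1 100 nM replicate 3) positive and 49 (without AMO1 100 nM replicate 2) to 119 (without XG1 100 nM replicate 1) negative differences as deposited. The lists that stood out by count were those of the cell cycle and of the integrated stress response. The difference was positive in 38 of 61 DNA replication genes, in 53 of 73 genes of G2 and mitosis and in 26 of 37 integrated stress response genes, and negative in none of them. Relative to the median gene the counts were 39, 52 and 26. Without XG1 100 nM replicate 2 they were 36, 49 and 21 as deposited. The median change of the replication list was −0.38 in XG1 and −1.55 in AMO1, that of the mitosis list −0.43 in XG1 and −1.83 in AMO1, and that of the stress response list −0.61 in XG1 and −1.86 in AMO1.

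**Figure D5:**
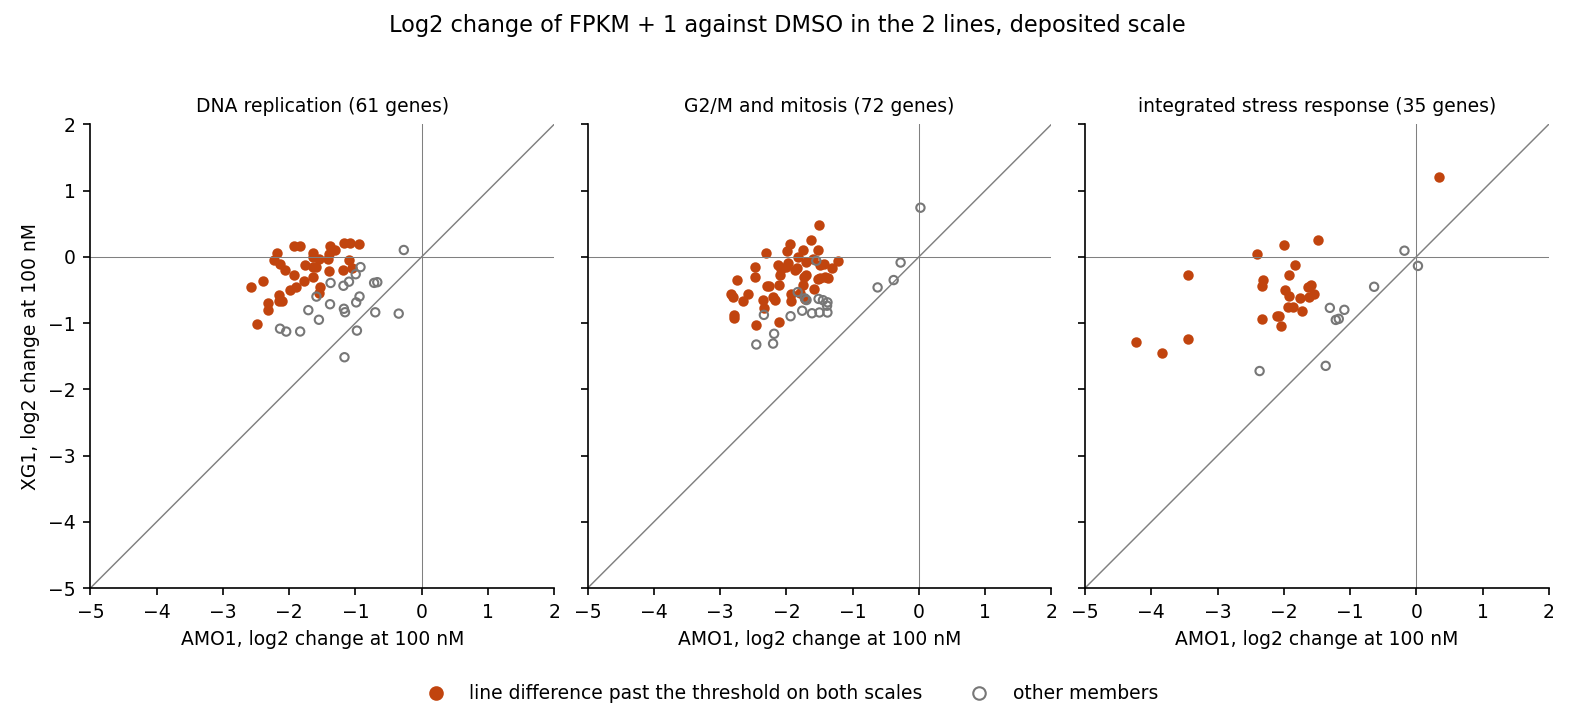
Log2 change at 100 nM against DMSO in XG1 (y axis) and in AMO1 (x axis), deposited scale, for the members of 3 lists that were tested in both lines (their number stands above each panel), filled where the difference between the lines passed the threshold on both scales. Most points lie above the diagonal, with medians over all tested members of −0.38, −0.43 and −0.61 in XG1 and −1.55, −1.83 and −1.86 in AMO1.

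AURKB changed by −0.66 in XG1 and −2.66 in AMO1, PSAT1 by −1.24 in XG1 and −3.44 in AMO1, and CHAC1 by −1.29 in XG1 and −4.23 in AMO1, each with a difference past the threshold on both scales. CTH, of cysteine synthesis, had 13.7, 14.3 and 12.7 FPKM in XG1 at 100 nM and 17.7, 14.4 and 18.2 FPKM with DMSO, a change of −0.28 that did not pass (limma adjusted p = 0.264), against −3.45 in AMO1. The histone genes HIST1H2BK and HIST1H1C changed by 2.75 and 2.14 in XG1 and by 1.26 and 0.61 in AMO1, with differences past the threshold on both scales. For the small nucleolar RNA host genes and the cytosolic ribosomal proteins no difference passed: none of 18 and none of 79 members were past the threshold as deposited (limma; 0 and 1 at an unadjusted p under 0.05). RABGGTB, a host outside the list, had a difference of −1.75 that passed (limma adjusted p = 0.0442). On the relative scale the difference was negative past the threshold in 2 listed host genes and 3 ribosomal protein genes. The median change of the host genes was −1.19 in XG1 and −1.21 in AMO1, and that of the ribosomal proteins −0.61 in XG1 and −0.72 in AMO1.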

How the data were processed

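RNA from XG1 and AMO1 cells was read with a 3′ tag library method, per the labels' protocols. Values were deposited as FPKM, made with HISAT2 and Cuffnorm on hg19 per the submitters' processing notes, which name no version; the values have no 0 and appear rescaled to the ERCC spike-ins, as read from the values. Division by transcript length can distort levels of 3′ tags, so changes are read within a gene. The sums over genes, the marker cut-off and the split of genes by level set different genes side by side. These carry that distortion. Depth is unknown.

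ERCC rows were left out. A gene was tested when 3 or more libraries reached 1 FPKM, on log2(FPKM + 1) with limma 3.58.1 (R 4.3.3; trend in the prior variance), over the 9 XG1 libraries, or all 18 for the difference between lines, with Benjamini-Hochberg adjustment at 0.05. A fold change on this scale understates the change of low genes. The relative scale divides each library by its median ratio to the others. The procedure was tested on simulated data. Promoters came from RefSeq (GRCh38.p14), 1 per symbol, for 9394 of 11810 tested genes.

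Gene lists and markers were chosen with earlier results of these data known, and named genes came by rule from the lists (up to 4 of the smallest p and 2 of the largest change), the 15 largest changes each way among called genes of 5 FPKM or more, and the 10 largest line differences each way, beside the target genes and any list member called on both scales; another gene picked by this rule is not reported here. Alternatives changed the pseudocount, filter, libraries in the fit, block, weights, trend and scaling, and left out each library.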

Additional observations from a re-analysis of the deposited data

Results flagged for a closer look

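The values below are differences in log2 change at 100 nM, XG1 minus AMO1, that passed the limma threshold on both scales. They are given for the 10 genes at each end and for other genes named in the report.

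Among genes whose difference was positive, the histone genes had 4.81 in HIST1H2BH, 2.35 in HIST1H2AM, 2.17 in HIST1H2BG, 1.54 in HIST1H1C, 1.49 in HIST1H2BK and 1.39 in HIST1H3D. In genes of the integrated stress response, transfer RNA charging and amino acid transport the difference was 3.17 in CTH, 2.95 in CHAC1, 2.44 in SLC1A5, 2.38 in INHBE, 2.20 in PSAT1, 1.39 in PHGDH, 1.02 in AARS, 0.993 in ATF4, 0.907 in PYCR1 and 0.865 in GDF15. GDF15 changed by 1.21 in XG1 and by 0.34 in AMO1. SLC1A5, a glutamine carrier, averaged 85.8 FPKM at 100 nM and 83.4 FPKM with DMSO in XG1, and 44.4 FPKM at 100 nM and 238 FPKM with DMSO in AMO1. In cell cycle genes it was 2.77 in SKA1, 2.58 in ASF1B, 2.48 in HJURP, 1.99 in AURKB, 1.56 in TUBB, 1.53 in E2F1, 1.49 in CCND3, 1.47 in MCM6, 1.43 in MAD2L1 and 1.13 in SMC4. ASF1B, a histone chaperone, changed by 0.71 in XG1 and by −1.87 in AMO1. Other positive differences were 3.83 in DHRS2, 2.70 in TUBB3, 2.49 in FAM107B, 1.81 in STYXL1, 1.23 in CCDC92 and 0.936 in NQO1. With DMSO in XG1, HIST1H2BH averaged 0.817 FPKM and DHRS2 0.833 FPKM, so the differences of both rest on a group under 1 FPKM.

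Among negative differences, several belong to genes that averaged under 1 FPKM in both AMO1 groups, so that no response of AMO1 could be read. These were −0.756 in ITGAM, −1.04 in LMO2, −1.23 in KLF1, −2.66 in MRLN, −2.75 in LINC00515, −2.77 in MT1A, −2.90 in CXCL8, −3.03 in LINC01029 and −4.31 in SNORD22, and the positive differences of 1.47 in CYR61 and 2.07 in FIBCD1 were of the same kind. In other genes the difference was −1.02 in GTF2H5, −1.75 in RABGGTB, −2.35 in HBD, −3.36 in SCO2 and −3.78 in LOC101929626. SCO2 averaged 0.817 FPKM with DMSO in AMO1, and LOC101929626 averaged 0.141 FPKM at 100 nM in XG1 and 0.101 FPKM with DMSO in AMO1, so that both differences rest on groups under 1 FPKM. The small RNA genes RNU12, SNORA20 and VTRNA1-1 had differences of −7.81, −11.1 and −11.1 with libraries of 1 group on both sides of the detection floor, and standard errors of 2.05, 2.33 and 2.50.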

How the results depend on the processing

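Direction and side of the threshold held in all 16 alternatives for 82 of the 96 named genes called at 100 nM, and for 85 when single libraries were left out. The log2 change of MCL1, 0.04 and not called, reversed to −0.058 without 100 nM replicate 1 and reached 0.124 without 100 nM replicate 2. Without a filter on low values, 125 genes rose and 549 fell as deposited, on the relative scale 484 and 432 did so, and 269 line differences were negative on the relative scale. With all 18 libraries in the fit 1415 genes rose relative to the median gene, and HBG1 and HBG2 lost their calls. Division by summed FPKM gave 1168 rises and 581 falls and quantile normalization 1045 and 866, against 863 and 856. With only the 12 libraries compared, 1076 line differences were positive as deposited. A pseudocount of 0.1 left 40 negative ones. Leaving out 1 library gave 135 to 403 rises and 415 to 1636 falls as deposited, and 380 to 772 rises and 323 to 817 falls on the relative scale. Line differences ran between 368 and 1041 positive and 49 and 119 negative as deposited, and between 270 and 525 negative on the relative scale. The causes were not tested.

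With the replicate number as a block 241 genes rose and 1009 fell as deposited, and 454 positive and 59 negative line differences were past the threshold. Deviations of same-numbered libraries correlated at 0.045, 0.157 and 0.151, which is not taken as pairing, though each library correlated best with its own number. Depth is unknown, and 3 libraries a group limit what could be detected.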

Other observations

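Small RNA genes were called lower more often than higher at 100 nM. Of 91 tested small nucleolar RNA genes 2 rose and 18 fell, with a median log2 change of −2.41 and a median standard error of 1.64. Over all tested genes 2.48% rose and 10.0% fell. SNORD22 had 37.5, 0.157 and 0.113 FPKM at 100 nM and 40.2, 74.1 and 128 FPKM with DMSO, so replicates 2 and 3 at 100 nM lay near the detection floor. Small nucleolar RNA genes overlap their hosts, and the listed host genes had a median of −1.19. Reads of such a pair cannot be assigned with certainty, so these falls cannot be told from those of the hosts. Whether counting used the strand is unknown. Of 14 tested small nuclear RNA genes 5 fell and none rose, with a median of −1.35 and a median standard error of 0.305. The median standard error of all tested genes was 0.227.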
